A study of Mus musculus with 12 samples.

Results

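The cells described here were 6 single cardiac precursors (CPs) of the mouse, 3 EHF Nkx2-5+/Tbx5+ CPs and 3 EB Tbx5+ CPs, out of 12 single cells sequenced in 4 subpopulations. They were taken by their labels and compared over the genes whose RPM averaged 10 or more in these 6 cells. RPM is the number of reads of a gene scaled to a fixed total of aligned reads per cell. It is not corrected for gene length, so levels are compared between cells and not between genes. EHF is the early head fold stage and EB the early allantoic bud stage that precedes it, and all embryos were of the CD1 strain. The markers were those found by PCR on the amplified cDNA of each cell, Nkx2-5 together with Tbx5 at EHF and Tbx5 without Nkx2-5 at EB. Stage and the Nkx2-5 label therefore changed together in this comparison and cannot be told apart. The other 6 cells, 3 EHF Nkx2-5+ and 3 EB Nkx2-5+ CPs, served as a second pair across the same stages. Before the cells were picked by hand, the yolk sac and the hind part of the embryo had been cut away. No label ties a cell to an embryo, so each subpopulation counts as 1 sample and no test was possible. Below, the 6 cells are called EHF cells 1 to 3 and EB cells 1 to 3.

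Heart precursors arise from mesoderm that leaves the primitive streak under the factor MESP1 and come to lie in the cardiac crescent at the head fold stage. There a network of transcription factors, among them NKX2-5, TBX5, the GATA factors and the remodelling subunit SMARCD3, switches on the genes of the contractile filaments. TBX5 marks above all the precursors of the left ventricle and the atria.

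The total of aligned reads was 37905007, 36588366 and 34866324 in EHF cells 1 to 3, against 36733874, 36168502 and 32844430 in EB cells 1 to 3. At this depth 3 reads, which a count of 0 allows, were worth 0.0791 to 0.0913 RPM per cell, for counting error only. EHF cell 3 stood apart: it held 2682 genes at 1 RPM or more, against 4885 and 5650 in EHF cells 1 and 2, and the 100 most abundant genes took 44.2% of its RPM, against 29.6% and 27.4%. EB cell 2 also held few genes, 3249 at 1 RPM or more, against 5030 and 5479 in EB cells 1 and 3. Single cells differed greatly from each other. At a difference of 1 or more on the log2 scale, with 10 RPM added to each value, 2 EHF cells differed at 62.7% of genes on average (3 pairs, 56.1 to 68.6%) and 2 EB cells at 55.2% (3 pairs, 52.5 to 56.7%). A cell of one subpopulation and a cell of the other differed at 57.6% (9 pairs, 43.2 to 63.7%), so the cells of 1 subpopulation were about as far apart as cells of different ones. The mean Spearman correlation across genes was 0.30 within the EHF cells, 0.38 within the EB cells and 0.30 between them.

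**Figure D1:**
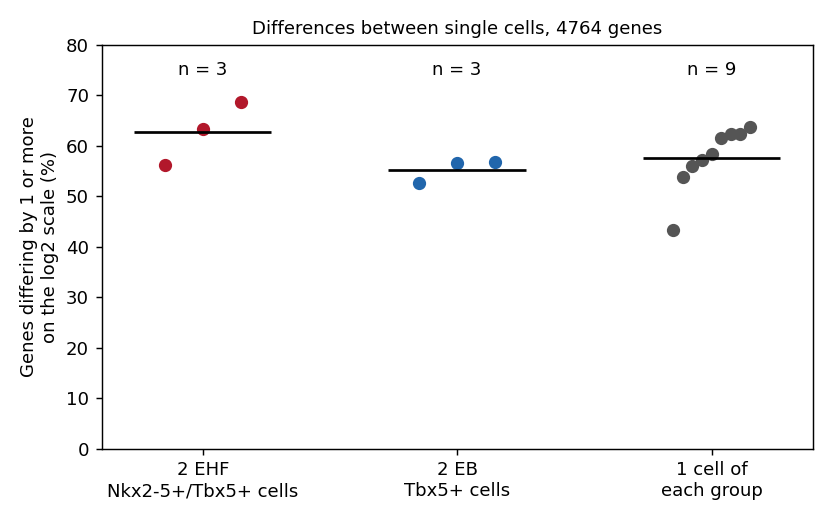
Share of the 4764 genes that differed by 1 or more on the log2 scale (10 RPM added) between the 2 cells of each pair. Points are pairs of cells and lines are means; the means of 62.7% within EHF Nkx2-5+/Tbx5+ cells and 55.2% within EB Tbx5+ cells lie on either side of the 57.6% between the groups.

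Of 14063 symbols, 4764 reached the minimum of 10 RPM. With 10 RPM added to each mean, the mean of the EHF cells was higher than that of the EB cells by 1 or more on the log2 scale for 1501 genes (31.5%) and lower by as much for 1337 genes (28.1%), around a median of 0.04. Without EHF cell 3, 1210 of the 1501 (80.6%) and 1034 of the 1337 (77.3%) remained past these limits. The 2 groups overlapped for most of these genes. For 220 genes (4.62%) the 3 EHF cells all lay above the 3 EB cells, and for 218 genes (4.58%) they all lay below. With 3 cells against 3, values in random order would separate at about this rate. Separation of the groups therefore only describes these cells and is no sign of a difference by itself. A stricter reading, at least 10 RPM in all cells of one subpopulation and under 10 RPM in all cells of the other, took in 46 genes (0.966%) on the EHF side and 42 genes (0.882%) on the EB side. The minimum of 10 RPM lay between Tbc1d10a, at a mean of 9.997 RPM and left out, and Erc1, at 10.0002 RPM and kept.

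The genes that gave the cells their labels were read first. Nkx2-5, the homeobox factor of the early heart, had 262, 65.1 and 12.2 RPM in EHF cells 1 to 3, and was listed at 0 in every EB cell. Tbx5 had 60.3, 3.69 and 8.69 RPM in the EHF cells, against 0.218, 0.0276 and 0.335 RPM in the EB cells. These EB values are worth 8, 1 and 11 reads, and none of the 6 Nkx2-5+ cells of the series had a single Tbx5 read, so the EB label rests on the PCR and on very few reads. Cfc1, the NODAL co-receptor by which candidate precursors were chosen, had 94.8, 52.5 and 75.6 RPM in the EHF cells, against 0.0272, 60.5 and 107.7 RPM in the EB cells, and so was near 0 in EB cell 1. Sox17, whose detection led to a cell being left out, was at 0 in all 6 cells. Of the marker genes picked for other tissues few were present. The 3 listed markers of paraxial mesoderm, Tbx6, Tcf15 and Pax3, were at 0 in all 6 cells, and the 3 listed neural and ectodermal markers summed to under 0.1 RPM in each cell, with 1 of them at 0 throughout. The wider lists for these tissues held genes that were present. Ncam1, an adhesion protein of neural and other cells, had 154.1, 189.2 and 0.344 RPM in the EHF cells, against 0.245, 1.24 and 1.705 RPM in the EB cells, and Meis2, a homeobox factor, 69.6, 7.84 and 0.115 RPM, against 0.0544, 0.111 and 0 RPM. The listed endothelial and blood markers summed to 41.7, 6.86 and 0 RPM in the EHF cells, against 338.7, 0.111 and 3.50 RPM in the EB cells, with Tal1 and Gata1 at 0 in all 6. The endodermal ones summed to 0 RPM in each EHF cell, against 123.4, 0.0276 and 1.10 RPM in the EB cells, with Foxa2 at 0 in all 6, so that EB cell 1 stood apart among the EB cells. Etv2 made up the first sum in the EHF cells, and Kdr and Epcam made up both in EB cell 1. The part of these transcripts in the other results was not tested.

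The cardiac transcription factors were mostly higher in the EHF cells. Of 25 genes on the list, 24 were listed and 14 passed the minimum; 11 of these had the higher mean in EHF cells, 10 by 1 or more on the log2 scale and 2 lower by as much. In 6 of the 14 the EHF cells all lay above the EB cells and in 1 all below, against 4.62% and 4.58% of all genes compared. The median was 2.04, against 0.04 over all genes compared. When each of the 6 cells was left out in turn it ranged between 1.82 and 2.46, while that of all genes ranged between -0.43 and 0.39; the ranges given after the lists below are of the same kind. Nkx2-5 and Tbx5 are on this list and gave the cells their labels, so their direction was set by the choice of cells. Without them, 9 of 12 were higher, 8 by 1 or more and 2 lower by as much, 4 were all above and 1 all below, and the median was 1.9986. Isl1, among the 12 and the 4, was at 0 in all EB cells, so its direction was set by the minimum. Its separation rested on 2 reads in EHF cell 1, fewer than the 3 reads that a count of 0 allows. With no minimum the median of the whole list was 0.12, against -0.000453 over the 11962 genes above 0, since most other members were near 0 in all cells.

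Gata4, a zinc finger factor that acts with NKX2-5 and TBX5, had 290.9, 313.8 and 55.4 RPM in EHF cells 1 to 3, against 8.22, 0 and 11.5 RPM in the EB cells, a log2 difference of 3.80. All EHF cells were clear of all EB cells. Gata5, its relative, had 172.4, 119.7 and 4.96 RPM in the EHF cells, against 0, 0 and 0.365 RPM in the EB cells. Gata6 had 257.9, 624.8 and 2315 RPM in the EHF cells, against 327.7, 8.82 and 126.5 RPM in the EB cells, and here the groups overlapped. Smarcd3, the subunit of the BAF remodelling complex that works with TBX5 and GATA4, had 351.6, 177.3 and 770.1 RPM in the EHF cells, against 5.99, 78.5 and 139.0 RPM in the EB cells (log2 difference 2.39). Isl1, a marker of the second heart field, was all but absent from EHF cell 1 at 0.0528 RPM, had 89.5 and 31.8 RPM in EHF cells 2 and 3, and was listed at 0 in every EB cell. Foxc2, a forkhead factor of the same field, had 0.0528, 115.8 and 0.0287 RPM in the EHF cells and was listed at 0 in every EB cell, so it was a transcript of EHF cell 2. The list of the second heart field as a whole leaned the other way: 6 of 17 genes passed the minimum, Isl1 and Foxc2 with a higher mean in the EHF cells and Hoxb1, Aldh1a2, Wnt2 and Foxf1 with a lower one, and the median was -0.99 (-1.52 to 0.63). Isl1 and Foxc2, at 0 in all EB cells, could pass the minimum only through the EHF cells, so their direction was set by it. Srf, the partner of myocardin on muscle genes, had 230.0, 25.1 and 4.96 RPM in the EHF cells, against 0.490, 0.940 and 11.6 RPM in the EB cells. Tbx20 was at 9.97, 0.164 and 55.9 RPM in the EHF cells, against 0.0544, 0.0553 and 0.244 RPM in the EB cells. Of the members that separated the groups, Gata4, Smarcd3 and Nkx2-5 were above 10 RPM in all EHF cells.

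Hand1 ran the other way. This helix-loop-helix factor, known from extraembryonic mesoderm and the left ventricle, had 0, 0 and 127.1 RPM in the EHF cells, against 1643, 1102 and 1684 RPM in the EB cells, a log2 difference of -4.83. With Bmp4, the other listed marker of extraembryonic mesoderm on the marker list, it summed to 77.0, 246.6 and 160.1 RPM in the EHF cells, against 2748, 1125 and 2272 RPM in the EB cells, and whether cells of that tissue were among the EB cells was not tested. Its relative Hand2 had 37.5, 75.3 and 1.49 RPM in the EHF cells, against 4.14, 51.5 and 36.8 RPM in the EB cells, and did not separate the groups. Mef2a had 0.396, 2.68 and 0 RPM in the EHF cells, against 201.8, 21.7 and 0.335 RPM in the EB cells. Mef2c was under 10 RPM in all 6 cells. Cited2, a CBP-binding cofactor, was at like levels, with 162.8, 57.8 and 210.0 RPM in the EHF cells and 235.3, 153.8 and 217.6 RPM in the EB cells.

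The genes of the sarcomere, the contractile unit of striated muscle, were also higher, but unevenly between the EHF cells. Of 33 genes on the list 29 were listed and 15 passed the minimum. The mean was higher in the EHF cells for 14 of the 15, by 1 or more on the log2 scale for 13, and lower by as much for 1. Their median was 2.56 with all cells and 1.07 without EHF cell 3, against a median of 0.23 over all genes without that cell. Set cell by cell against the EB mean, the list's median was 1.11, 0.00 and 3.48 in EHF cells 1 to 3, and over all genes it was -0.17, 0.00 and -1.77. In all EB cells, 5 members were listed at 0, against 144 of the 4764 genes compared. A gene at 0 in all EB cells could pass the minimum only through its level in the EHF cells. The direction of these 5 members was therefore set by the minimum and is no sign of a difference by itself.

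Of the 15 sarcomere genes compared, 4 had all EHF cells above, against 4.62% of all genes compared. These 4 were of the thin filament, and Tnnc1 among them was 1 of the 5 members whose direction was set by the minimum. Tnnt2, which codes for cardiac troponin T, had 11.1, 0.191 and 2270 RPM in EHF cells 1 to 3, against 0.0272, 0 and 0 RPM in the EB cells. It separated on 7 reads in EHF cell 2 against 1 read in EB cell 1. Its log2 difference of 6.27 was 0.65 without EHF cell 3. Tnnc1, troponin C, was at 57.7, 12.4 and 101.2 RPM in the EHF cells and listed at 0 in every EB cell. Tnni1, the troponin I of slow muscle and the embryonic heart, was at 74.7, 22.5 and 2.47 RPM in the EHF cells, against 0.0272, 0 and 0 RPM in the EB cells. Tpm1, alpha-tropomyosin, was abundant everywhere, with 1646, 1563 and 11122 RPM in the EHF cells, against 712.6, 911.6 and 647.1 RPM in the EB cells (log2 difference 2.64, and 1.07 without EHF cell 3). Tpm4, the non-muscle tropomyosin, was lower, with 7.20, 18.7 and 7.97 RPM in the EHF cells, against 363.7, 21.5 and 16.9 RPM in the EB cells (-2.76). The troponins other than troponin T thus did not hang on EHF cell 3.

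Cardiac actin and the myosin heavy chains were carried largely by EHF cell 3, the light chains were not. Actc1, cardiac alpha-actin, had 67.0, 0.0820 and 2681 RPM in the EHF cells, against 0.354, 0.111 and 4.11 RPM in the EB cells. Myh6 and Myh7, the cardiac myosin heavy chains, had 2.14, 0 and 1154 RPM and 3.06, 0 and 1056 RPM in the EHF cells and were listed at 0 in the EB cells. These genes are near-identical neighbours, so reads could be shared between them. Myl4, the atrial essential light chain, had 180.2, 24.02 and 435.3 RPM in the EHF cells, against 47.3, 0 and 0.0304 RPM in the EB cells. Ankrd1 and Mybpc3 were above 0 in EHF cell 3 alone, at 125.6 and 93.8 RPM. Myl7, the atrial regulatory light chain and a marker of the whole crescent, was present in both groups, with 1124 or more RPM in EHF cells 1 and 3 but 38.6 RPM in EHF cell 2, against 12.6, 235.5 and 130.1 RPM in the EB cells. Myl2, the ventricular light chain, was at 0 in all 6 cells. Myl9, a light chain of smooth muscle and non-muscle myosin, had 148.5, 38.6 and 0.0287 RPM in the EHF cells, against 107.1, 0.359 and 0.183 RPM in the EB cells, and Des, the filament protein desmin, 130.2, 0 and 2.39 RPM, against 0, 0 and 24.4 RPM. The EHF cells thus held different sarcomere transcripts: cell 3 the most of Actc1, Myh6, Myh7 and Tnnt2, and cell 1 the most of Tnni1, Myl9 and Des.

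**Figure D2:**
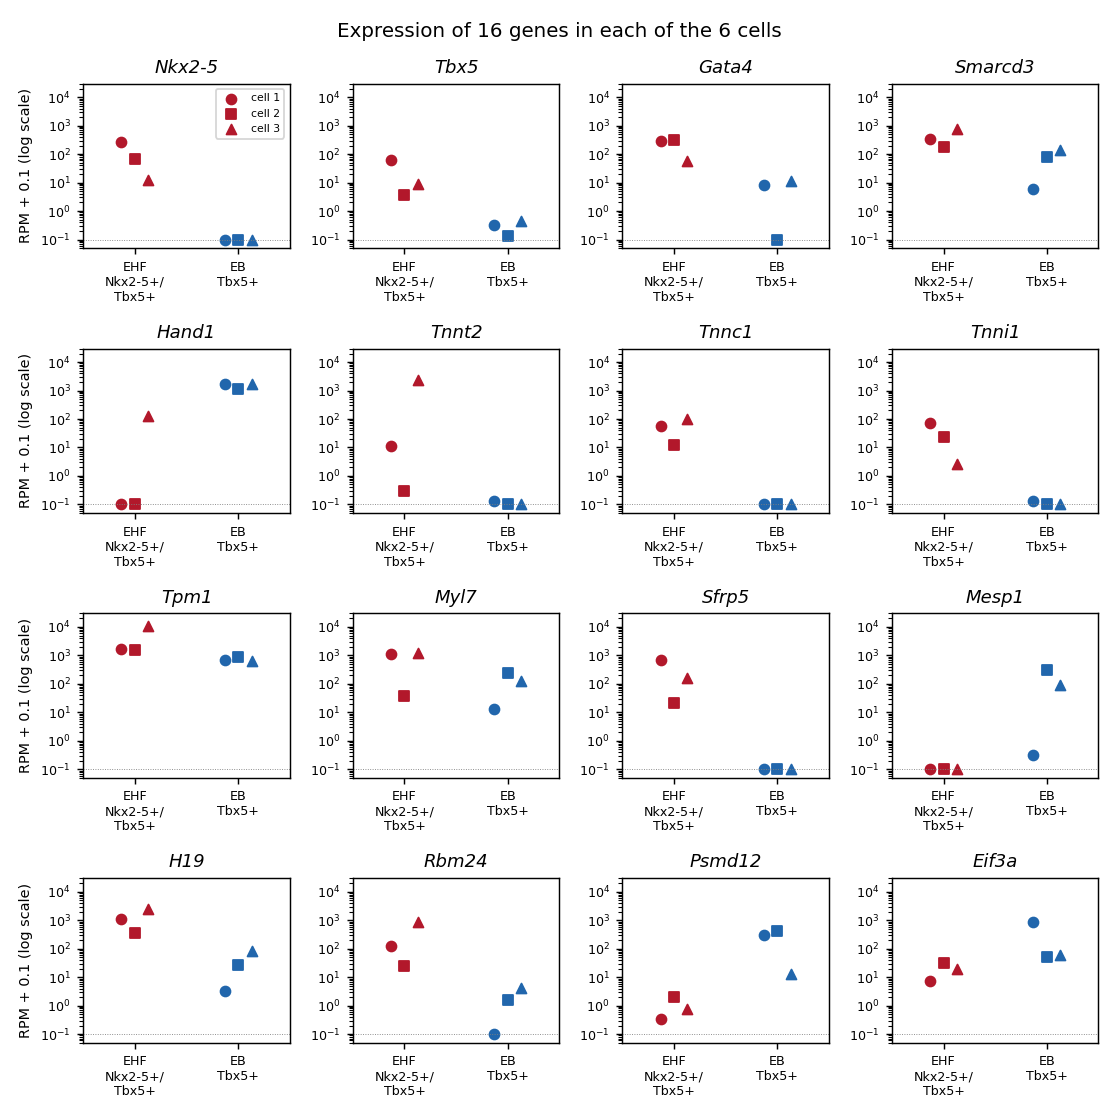
RPM plus 0.1 on a log axis for 16 genes in each of the 6 cells, EHF Nkx2-5+/Tbx5+ in red on the left and EB Tbx5+ in blue on the right; the marker shape gives the cell number and the dotted line a value of 0. Nkx2-5, Tnnc1 and Sfrp5 lie at 0 in all EB cells, Mesp1 lies at 0 in all EHF cells, and Tnnt2 ranges between 0.191 and 2270 RPM among the EHF cells.

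The 250 bases before a transcript start of 6 genes whose cells did not overlap are shown, 5 higher in the EHF cells and Mesp1 lower, because T-box, GATA and NKX2-5 proteins are known to bind short motifs that can be looked for there. The window of Tnni1, and most of that of Mesp1, lies inside the gene as placed by GENCODE. They come from RefSeq (GRCm38.p6, the same assembly as mm10) and end at a RefSeq transcript start. Capitals mark the T-box site AGGTGT, the GATA site AGATAA and the NKX2-5 site AAGTG on either strand; no 2 of these motifs overlap here.
Tnnt2, chr1:135836084-135836333, plus strand: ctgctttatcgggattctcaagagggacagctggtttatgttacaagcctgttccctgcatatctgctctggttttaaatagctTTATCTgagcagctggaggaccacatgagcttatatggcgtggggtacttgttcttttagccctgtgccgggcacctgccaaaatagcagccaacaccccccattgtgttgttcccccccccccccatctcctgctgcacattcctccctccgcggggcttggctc
Tnnc1, chr14:31208062-31208311, plus strand: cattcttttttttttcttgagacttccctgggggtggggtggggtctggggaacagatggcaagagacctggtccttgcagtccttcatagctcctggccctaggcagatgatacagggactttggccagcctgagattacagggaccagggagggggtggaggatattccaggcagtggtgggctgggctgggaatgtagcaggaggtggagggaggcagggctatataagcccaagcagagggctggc
Tnni1, chr1:135799171-135799420, plus strand: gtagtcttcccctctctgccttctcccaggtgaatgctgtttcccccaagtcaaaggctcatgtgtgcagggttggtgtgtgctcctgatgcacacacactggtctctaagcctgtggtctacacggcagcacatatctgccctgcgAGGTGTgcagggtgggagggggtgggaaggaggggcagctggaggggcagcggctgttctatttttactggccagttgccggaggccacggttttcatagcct
Rbm24, chr13:46418050-46418299, plus strand: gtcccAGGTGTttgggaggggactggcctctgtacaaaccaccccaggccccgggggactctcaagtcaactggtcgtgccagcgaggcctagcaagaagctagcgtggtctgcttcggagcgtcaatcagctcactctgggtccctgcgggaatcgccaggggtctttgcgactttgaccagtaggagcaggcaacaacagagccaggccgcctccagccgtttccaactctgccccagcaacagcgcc
Sfrp5, chr19:42202253-42202502, minus strand: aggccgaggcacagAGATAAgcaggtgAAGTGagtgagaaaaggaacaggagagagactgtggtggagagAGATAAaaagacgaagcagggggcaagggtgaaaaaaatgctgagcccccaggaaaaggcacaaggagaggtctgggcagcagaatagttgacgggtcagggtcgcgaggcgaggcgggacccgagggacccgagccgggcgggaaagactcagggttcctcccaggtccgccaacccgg
Mesp1, chr7:79793591-79793840, minus strand: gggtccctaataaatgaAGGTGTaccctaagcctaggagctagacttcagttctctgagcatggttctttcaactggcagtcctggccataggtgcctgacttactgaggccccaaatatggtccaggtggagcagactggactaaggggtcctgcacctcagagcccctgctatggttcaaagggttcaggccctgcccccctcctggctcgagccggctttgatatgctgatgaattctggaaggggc
The Tnnt2 window held 1 GATA site, those of Tnni1, Rbm24 and Mesp1 1 T-box site each, that of Sfrp5 2 GATA sites and 1 NKX2-5 site, and that of Tnnc1 none of the 3 motifs. Over 27025 such windows, 1 per gene, the T-box site was in 11.99%, the GATA site in 10.3% and the NKX2-5 site in 40.8%. Over the 3647 windows of the genes compared here, the background for the next counts, the shares were 8.80%, 4.72% and 37.3%. Of the 220 genes with all EHF cells above, 162 had a window, and 7, 11 and 60 of these (4.32%, 6.79% and 37.0%) held the T-box, GATA and NKX2-5 motif. Of the 218 with all EHF cells below, 166 had one, and 12, 12 and 66 (7.23%, 7.23% and 39.8%) held them. A match is a string of letters, not a bound site.

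Of 23 genes of the primitive streak and nascent mesoderm only 4 passed the minimum, 3 with the higher mean in the EB cells and 1 in the EHF cells, each in some cells only. Mesp1, the factor that marks the earliest heart precursors, was listed at 0 in all EHF cells and had 0.218, 317.1 and 90.2 RPM in EB cells 1 to 3. Kdr, the VEGF receptor of early mesoderm and endothelium, was listed at 0 in all EHF cells and had 338.7, 0.0553 and 2.74 RPM in the EB cells. The T gene (Brachyury) was read in EB cell 1 alone, at 124.3 RPM. Cdx1, a caudal homeobox factor, was the exception, with 0, 125.4 and 0.0287 RPM in the EHF cells and 0 in every EB cell. The median of these 4 genes, -2.997, was -0.09 without EB cell 1. Each of the 4 was at 0 in all cells of one group, so it could pass the minimum only through the other. Their directions were therefore set by the minimum, and neither the split nor the median is a sign of a difference by itself. Cdh2 (N-cadherin) had 0, 0 and 0.0287 RPM in the EHF cells, against 163.0, 0.857 and 5.33 RPM in the EB cells. Epcam, an epithelial adhesion protein, was listed at 0 in the EHF cells and had 123.4, 0.0276 and 1.10 RPM in the EB cells. EB cell 1 thus held most of the Kdr, T, Epcam and Cdh2 and next to no Mesp1, and EB cells 2 and 3 held Mesp1. Aldh1a2, the enzyme that makes retinoic acid, had 0.0264, 0.519 and 0 RPM in the EHF cells, against 0, 400.3 and 64.2 RPM in the EB cells, and so was also a transcript of EB cells 2 and 3.

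Secreted WNT inhibitors and the non-canonical branch had a higher list median in the EHF cells, but unevenly between them. Of 25 genes 19 were listed and 10 passed the minimum, 7 with a higher mean, 6 by 1 or more on the log2 scale, and 2 lower by as much, with a median of 1.95. The median was 0.04 without EHF cell 2, 2.40 without EHF cell 3 and 0.12 with the median over cells. Set cell by cell against the EB mean it was 0.03, 2.70 and -0.29 in EHF cells 1 to 3. Over all genes these values were -0.17, 0.00 and -1.77. Of the 10 genes, 1 had all EHF cells above. Sfrp5, a secreted frizzled-related inhibitor known from the precursors of the inflow region, had 701.7, 20.9 and 158.2 RPM in the EHF cells and was listed at 0 in all EB cells. It lies at 42197971 to 42202252 of chromosome 19 in mm10. Ror2, a receptor for WNT5A, had 191.3, 222.1 and 0.172 RPM in the EHF cells, against 0, 0 and 3.14 RPM in the EB cells, and Wnt5a itself 25.4, 85.2 and 0.0287 RPM, against 0.0272, 0.553 and 1.49 RPM. Sfrp1 had 76.6, 384.3 and 0.201 RPM in the EHF cells, against 0, 0 and 11.97 RPM in the EB cells. Ror2, Wnt5a and Sfrp1 were thus high in EHF cells 1 and 2 and near 0 in cell 3, while Sfrp5 was present in all EHF cells.

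Canonical WNT genes had a median of -0.70 over the 18 of 42 that passed the minimum, 6 with a higher mean in the EHF cells, and no member separated the groups. The median ranged between -1.07 and 0.62, with the sign turned without EB cell 3. Ctnnb1, beta-catenin, had 149.0, 604.9 and 16.5 RPM in the EHF cells, against 1239, 118.4 and 440.6 RPM in the EB cells. Lef1, its nuclear partner, had 1.61, 52.0 and 0.0574 RPM in the EHF cells, against 6.59, 85.7 and 86.4 RPM in the EB cells. Tcf7 had 1.64, 0.328 and 0 RPM in the EHF cells, against 108.1, 1.63 and 10.9 RPM in the EB cells. Tcf3, a symbol now given to the E protein E2A and earlier also used for the WNT effector Tcf7l1, lay lower in every EHF cell, with 139.3, 170.2 and 0.746 RPM, against 183.5, 254.1 and 337.5 RPM in the EB cells (log2 difference -1.24). In the NOTCH pathway, Rbpj, the DNA-binding effector, had 13.3, 85.2 and 0.258 RPM in the EHF cells, against 65.2, 155.5 and 141.8 RPM in the EB cells, and overlapped. Notch1 was high in EHF cell 1 alone, at 152.7 RPM, with 0 RPM in EHF cells 2 and 3, against 0.0817, 0.0553 and 14.4 RPM in the EB cells.

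Among BMP genes 16 of 31 passed the minimum, 11 with a higher mean in the EHF cells, and the median was 1.03 (0.37 to 1.10), lowest without EHF cell 2. Bmp7 had 50.9, 98.9 and 0.172 RPM in the EHF cells and was listed at 0 in the EB cells. Smad4, the shared signal transducer of BMP and TGF-beta, had 415.8, 419.5 and 600.8 RPM in the EHF cells, against 103.5, 0.221 and 313.2 RPM in the EB cells (log2 difference 1.71). Id1, a target of BMP signalling, had 61.4, 392.3 and 868.2 RPM in the EHF cells, against 88.9, 10.3 and 108.4 RPM in the EB cells, and overlapped. Bmp4 also overlapped, with 77.0, 246.6 and 32.9 RPM in the EHF cells, against 1105, 22.5 and 587.2 RPM in the EB cells. The BMP target Msx1 had 25.4, 0.0273 and 6.44 RPM in the EHF cells, against 239.4, 0.193 and 381.4 RPM in the EB cells. Bmp4 and Msx1 were thus highest in EB cells 1 and 3 and low in EB cell 2. Among the EHF cells they differed, with Bmp4 highest and Msx1 lowest in EHF cell 2. In the FGF pathway 9 of 25 genes passed, with a median of -1.08 (-2.00 to -0.43). Map2k1 (MEK1), the kinase above ERK, had 1.00, 5.00 and 0.0287 RPM in the EHF cells, against 142.0, 10.7 and 16.7 RPM in the EB cells. Fgf8 and Fgf10 were under 10 RPM in all 6 cells.

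Extracellular matrix and integrin genes had a median of 1.14 over the 14 of 27 that passed, 10 with a higher mean in the EHF cells, and 3 with all EHF cells above. Over all genes compared 4.62% lay all above. The range of the list's median was 0.80 to 1.60. Lama1, a laminin chain of early basement membranes, had 237.6, 133.7 and 552.8 RPM in the EHF cells, against 0, 0 and 53.3 RPM in the EB cells (log2 difference 3.52). Col5a1 had 148.8, 3.80 and 25.9 RPM, against 0, 0 and 0.304 RPM, and the fibronectin receptor chain Itga5 69.0, 56.7 and 84.0 RPM, against 0.245, 0.0276 and 41.7 RPM. Col18a1 was strong in EHF cells 1 and 2, at 1194 and 389.2 RPM, with 3.21 RPM in EHF cell 3, against 0.0272, 0.276 and 27.1 RPM in the EB cells. Itga5 was the most even of these among the EHF cells.

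The actin cytoskeleton divided. Of 37 genes 26 passed the minimum, and the EHF cells all lay above for 3 and all below for 5, with a median of 0.52 (0.15 to 0.80). Over all genes compared 4.62% lay all above and 4.58% all below. The filamins, crosslinkers of actin, and zyxin were higher. Flna had 287.0, 289.3 and 3563 RPM in the EHF cells, against 84.1, 4.06 and 33.9 RPM in the EB cells (log2 difference 4.78, and 2.56 without EHF cell 3). Flnc, the muscle filamin, had 53.3, 18.5 and 27.8 RPM, against 0.0272, 0 and 0.244 RPM. Zyx, a focal adhesion protein, had 388.5, 335.6 and 1870 RPM, against 135.4, 19.4 and 77.1 RPM. The genes with all EHF cells below were Arpc1a and Actr3, subunits of the branching complex ARP2/3, Capzb and Capza2, which cap filament ends, and Ezr, which ties actin to the membrane. Arpc1a had 47.0, 177.1 and 66.4 RPM in the EHF cells, against 514.4, 779.5 and 305.9 RPM in the EB cells (-2.35). Capza2 had 2.72, 8.91 and 0 RPM in the EHF cells, against 118.3, 14.1 and 208.5 RPM in the EB cells (-3.16).

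Subunits of the BAF and PBAF remodelling complexes had a median of 1.36 over the 13 of 24 that passed, 10 with a higher mean in the EHF cells. Smarcd3 (above) and Pbrm1, the polybromo subunit of PBAF, separated the groups. Pbrm1 had 28.3, 123.3 and 51.5 RPM in the EHF cells, against 4.55, 0.332 and 6.39 RPM in the EB cells. Arid2, the other subunit that sets PBAF apart, had 15.1, 61.4 and 17.4 RPM in the EHF cells, against 1.69, 1345 and 96.1 RPM in the EB cells, and its log2 difference of -3.57 was -0.51 without EB cell 2. Leaving out single cells moved the list's median between 0.23 and 1.94.

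Genes of mitochondrial fuel use differed in both directions. Of 26 genes of fatty acid oxidation 8 passed the minimum, 6 with a higher mean in the EHF cells, and the median was 1.16 (0.59 to 1.72). Hadha, a subunit of the trifunctional enzyme of beta-oxidation, had 6.52, 44.6 and 1547 RPM in the EHF cells, against 0, 0 and 1.83 RPM in the EB cells (log2 difference 5.68, and 1.75 without EHF cell 3). Cpt2, which readies fatty acids inside the mitochondrion, had 74.4, 81.8 and 341.0 RPM, against 0.0272, 0 and 25.9 RPM. Acaa2, the thiolase of the last step, had 53.9, 72.7 and 0.0574 RPM in the EHF cells and was listed at 0 in the EB cells. Etfa, which carries the electrons of that pathway to the respiratory chain, was lower, with 0.158, 0.601 and 0.0287 RPM in the EHF cells, against 92.9, 33.2 and 149.3 RPM in the EB cells (-3.31). Ivd, an enzyme of leucine breakdown noticed after its values were seen, also separated the groups, and had 1.03, 0 and 0 RPM in the EHF cells, against 115.4, 84.7 and 13.7 RPM in the EB cells.

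Glycolytic genes had a median of -0.86 over the 15 of 21 that passed (-1.10 to -0.15). Slc2a1, the glucose transporter GLUT1, had 584.8, 585.2 and 0.631 RPM in the EHF cells, against 1126, 2010 and 1302 RPM in the EB cells (log2 difference -1.90). Eno1, enolase, had 35.3, 34.4 and 19.4 RPM, against 161.7, 128.0 and 38.7 RPM (-1.59). Gapdh was at like levels except in EHF cell 3, with 311.3, 255.3 and 14.3 RPM in the EHF cells, against 172.1, 184.0 and 229.9 RPM in the EB cells. For the nuclear genes of oxidative phosphorylation the median was -0.22 over the 69 of 76 that passed (-0.89 to 0.05). All EHF cells lay below for 3 of the 69, near the 4.58% of all genes compared. These were Cox7c, Ndufab1 and Cyc1. Cox7c separated narrowly, with 224.5 RPM in EHF cell 1 against 225.1 RPM in EB cell 1. Cyc1, cytochrome c1, had 80.3, 78.5 and 4.16 RPM in the EHF cells, against 187.9, 240.6 and 124.3 RPM in the EB cells.

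Translation factors leaned lower. All 37 passed the minimum, 11 with a higher mean in the EHF cells. None was higher by 1 or more on the log2 scale and 11 were lower by as much. Over all genes compared 31.5% were higher and 28.1% lower by as much, so 11 of 37 lay near the second share. The median was -0.50 (-1.08 to -0.08), nearest to 0 without EHF cell 3. In 4 of the 37 all EHF cells lay below, against 4.58% of all genes compared. These were the eIF3 subunits Eif3a, Eif3e and Eif3l and the initiation factor Eif4g2. Eif3a, the scaffold of eIF3, had 7.12, 30.4 and 20.1 RPM in the EHF cells, against 882.0, 49.6 and 58.1 RPM in the EB cells (-3.54, and -1.13 without EB cell 1). Eif3l had 215.1, 44.6 and 98.1 RPM, against 245.4, 234.7 and 523.0 RPM. Ribosomal proteins differed less: 77 of 84 passed, the median was -0.03 (-0.52 to 0.27), and 7 were past 1 on the log2 scale either way.

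The proteasome list as a whole was flat, with a median of 0.04 over the 32 of 41 that passed (-0.48 to 0.28). Of the 32, 4 had all EHF cells below and none all above, against 4.58% and 4.62% of all genes compared. Psmd12, a lid subunit, had 0.237, 1.86 and 0.688 RPM in the EHF cells, against 302.7, 414.4 and 12.4 RPM in the EB cells (log2 difference -4.53). Psmd6, another lid subunit, had 13.2, 3.58 and 0.0287 RPM, against 40.9, 795.3 and 20.1 RPM (-4.24, and -1.38 without EB cell 2). Psmd7, also of the lid, had 14.9, 1.48 and 1.12 RPM, against 152.1, 34.8 and 96.5 RPM (-2.72), and Psmb2, of the core, 217.4, 199.98 and 0.115 RPM, against 526.7, 287.0 and 286.3 RPM. The replication genes had a median of -0.15 over the 31 of 43 that passed (-0.75 to 0.35, above 0 without EB cell 1 or EHF cell 3). Of the 31, 3 had all EHF cells below, against 4.58% of all genes compared. These were Gins1, Gins3 and Orc6, which take part in origin firing. Gins3 and Gins1 were high in EB cell 1 alone, at 191.3 and 82.4 RPM. For Gins3, EHF cell 1 and EB cell 2 held 3 reads each (0.0791 and 0.0829 RPM), so its separation rested on depth alone. Orc6 had 54.3, 53.3 and 0 RPM in the EHF cells, against 88.2, 685.7 and 165.3 RPM in the EB cells. Mitotic genes had a median of -0.27 over the 27 of 40 that passed (-0.50 to 0.46, above 0 without EB cell 3 or EHF cell 3), and none separated the groups.

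Imprinted genes, which are read from one parental copy, had a median of 0.14 over the 14 of 27 that passed (-0.09 to 0.95). Of the 14, 4 had all EHF cells above, against 4.62% of all genes compared. H19, a non-coding RNA, had 1138, 357.2 and 2575 RPM in the EHF cells, against 3.16, 27.3 and 80.8 RPM in the EB cells (log2 difference 4.86, and 4.01 without EHF cell 3). Grb10, an adaptor that restrains insulin signalling, had 212.0, 859.3 and 1260 RPM, against 6.51, 32.2 and 49.5 RPM (4.32). Igf2r, which removes IGF2 from the cell surface, had 239.7, 153.7 and 37.5 RPM, against 28.4, 0.304 and 1.25 RPM (2.94). Cdkn1c, the cell cycle inhibitor p57, had 592.9, 696.9 and 495.1 RPM, against 0.517, 156.4 and 420.1 RPM (1.58). Igf2, the neighbour of H19, was high in both groups, with 2352, 1031 and 960.7 RPM in the EHF cells, against 465.3, 2079 and 1027 RPM in the EB cells. Mest had 27.1, 48.8 and 3.15 RPM in the EHF cells, against 2383, 25.8 and 907.1 RPM in the EB cells, with EB cell 2 inside the range of the EHF cells.

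RNA-binding proteins of splicing and RNA decay included some of the largest differences. The list's median was -0.36 over the 50 of 54 that passed (-0.96 to 0.02), with 3 genes all above and 3 all below. Over all genes compared 4.62% were all above and 4.58% all below, so these counts lay near those shares. Rbm24, a splicing factor of heart and skeletal muscle, had 126.6, 25.1 and 850.1 RPM in the EHF cells, against 0, 1.44 and 4.08 RPM in the EB cells (log2 difference 4.86, and 2.86 without EHF cell 3). Within the SF3B complex, which reads the branch point, Sf3b1 had 4.72, 8.28 and 2.64 RPM in the EHF cells, against 127.5, 49.9 and 55.1 RPM in the EB cells (-2.52), and Sf3b3 28.2, 89.7 and 61.6 RPM, against 7.02, 4.09 and 8.22 RPM (2.09). The 2 subunits thus differed in opposite directions. Rbmx, an X-linked hnRNP, had 146.6, 206.0 and 2653 RPM in the EHF cells, against 82.9, 8.71 and 3.78 RPM in the EB cells. Rbm7, of the nuclear exosome adaptor, had the largest negative difference among genes whose cells did not overlap, with 0.871, 3.58 and 0.373 RPM in the EHF cells, against 160.7, 996.5 and 69.0 RPM in the EB cells (-5.17). It lies at 48488701 to 48495299 of chromosome 9 in mm10.

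The other lists with at least 8 genes compared lay nearer to all genes or rested on single cells. The immediate early and stress genes, a sign of how cells were handled, had a median of 0.66 over 8 genes (0.15 to 1.86, highest without EB cell 3), with no member separating the groups. Pluripotency-linked genes had 0.48 over 9 genes (0.01 to 1.29), and genes of the allantois and extraembryonic mesoderm 0.28 over 15 (-0.26 to 1.19), of which Hand1 was all below and H19 all above in the EHF cells. Cytosolic chaperones had -0.44 over 30 (-0.88 to 0.41), above 0 without EB cell 1. Genes of mesenchymal transition and migration had -1.19 over 8 (-2.25 to 0.79), also above 0 without EB cell 1.

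**Figure D3:**
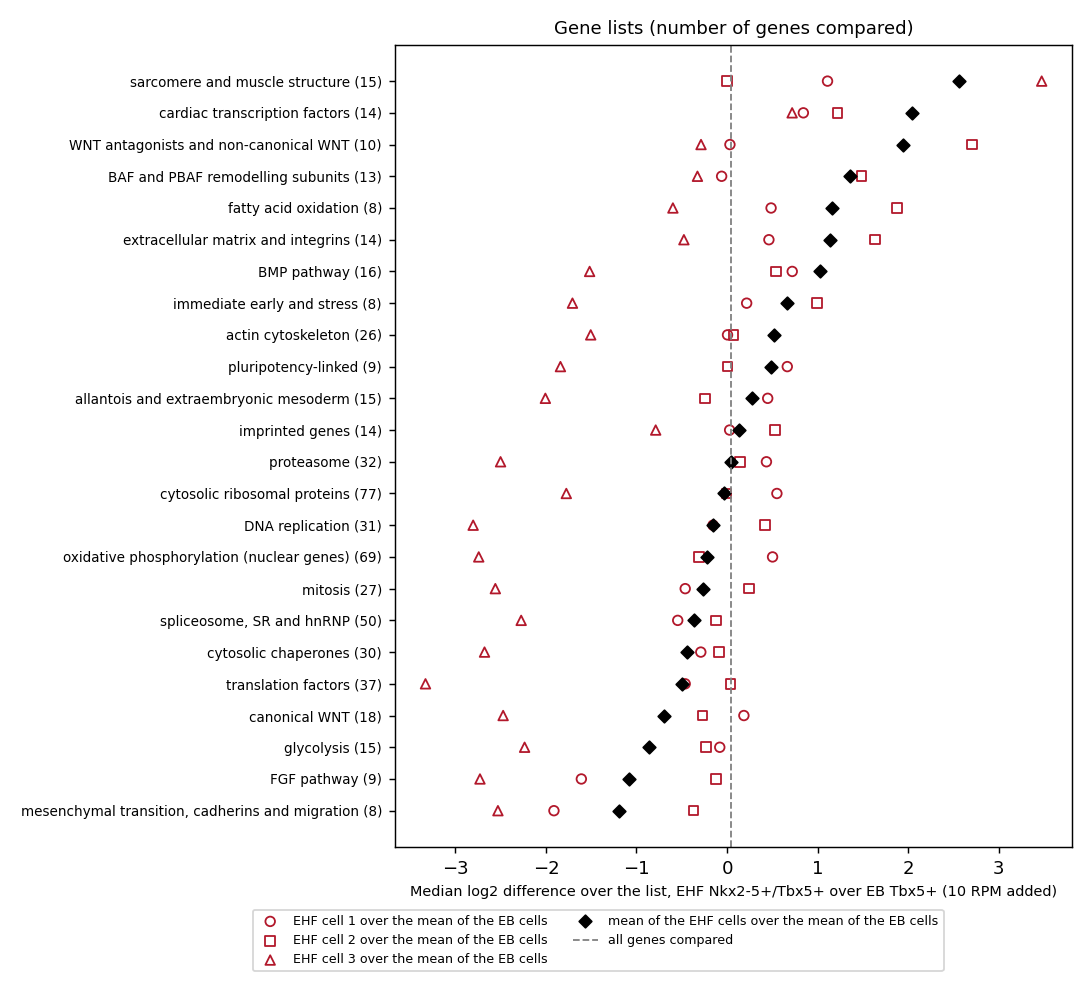
Median log2 difference (10 RPM added) of each gene list with at least 8 genes compared, EHF Nkx2-5+/Tbx5+ over EB Tbx5+; diamonds use the means of 3 cells, open markers set each EHF cell against the EB mean, and the dashed line is the median of all genes, 0.04. Sarcomere genes (2.56) and cardiac transcription factors (2.04) lie farthest right, and EHF cell 3 lies to the left of the other EHF cells for most lists but to their right for the sarcomere, at 3.48.

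The other genes with the largest positive differences among those that separated the groups were 6330416G13Rik (Tmem268), Pard6g, 2210018M11Rik (Emsy), Ttyh3, Tm9sf1, Slc9a8, Lrrc4b and Mrpl38, between 4.47 and 5.80 on the log2 scale. Each was highest in EHF cell 3, where it had between 533.3 and 1630 RPM. Without that cell their differences were 0.43 to 3.26. Pard6g, a polarity protein, shows the pattern at its most extreme, with 4.06, 4.92 and 1630 RPM in the EHF cells, against 0.0272, 0.0276 and 2.13 RPM in the EB cells. Mrpl38, a mitochondrial ribosomal protein, was more even, with 106.9, 92.1 and 533.3 RPM in the EHF cells, against 0, 0.0276 and 4.35 RPM in the EB cells. On the lower side Mgarp, Khdrbs3, Fam149b, Daxx, Stk24, Pelo, Rwdd1 and Gdi2 differed by -4.44 to -3.99. All but Gdi2 were highest in EB cell 2, Gdi2 in EB cell 1. Daxx, a histone chaperone, had 0.528, 21.8 and 0.631 RPM in the EHF cells, against 202.7, 728.0 and 46.5 RPM in the EB cells. Rwdd1 had 1.29, 0.902 and 1.12 RPM in the EHF cells, against 72.3, 394.1 and 66.5 RPM in the EB cells, so that the groups were far apart in every cell.

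Some genes outside that ranking, chosen after their values were seen, were even among the EHF cells or among the EB cells. Creld2, an endoplasmic reticulum protein, had 67.1, 67.6 and 68.5 RPM in the EHF cells, against 0.0544, 0.0553 and 0.0913 RPM in the EB cells. Dync1h1, the heavy chain of cytoplasmic dynein, had 122.8, 104.9 and 183.9 RPM, against 0.0817, 0.0553 and 1.80 RPM (log2 difference 3.79). Ly6e, a GPI-anchored surface protein, had 122.5, 137.1 and 47.6 RPM, against 0.0817, 0.0553 and 0.152 RPM (3.48). On the EB side, Tdp1, which repairs trapped topoisomerase, had 0.633, 1.07 and 0 RPM in the EHF cells, against 83.1, 98.7 and 73.3 RPM in the EB cells (-3.17). Rnd2, a small GTP-binding protein, was listed at 0 in all EHF cells and had 30.5, 193.1 and 52.9 RPM in the EB cells. All 5 belong to the genes at 10 RPM or more in one group and under 10 RPM in the other.

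The EHF Nkx2-5+ and EB Nkx2-5+ cells, which share no cell with the comparison above, give the same stages without the Tbx5 label. The 4764 genes were chosen by their level in the 6 cells above, so genes at 0 in the Nkx2-5+ cells are among them. Across these genes the stage differences of the 2 pairs were almost unrelated, with a Pearson correlation of 0.03 and 49.9% of genes of the same sign. In the Nkx2-5+ pair the EHF cells all lay above for 99 genes (2.08%) and all below for 489 genes (10.3%), and the median difference was -0.23. In that pair EHF Nkx2-5+ cells 1 to 3 held 4724, 3073 and 4386 genes at 1 RPM or more, against 4856 to 5193 in the EB Nkx2-5+ cells, and the part of this in the excess of lower genes was not tested. Both pairs separated in the same direction for 9 genes higher at EHF and 29 lower, and in opposite directions for 23. With 220 and 218 genes separated in the first pair, unrelated pairs would also share genes in this way, and no excess was tested. The genes lower at EHF in both included Mesp1, which in the Nkx2-5+ pair had 0, 0.113 and 0 RPM in the EHF cells, against 225.3, 0.176 and 532.2 RPM in the EB cells, and Cdh2, at 0.149, 0.451 and 0.401 RPM, against 1.22, 111.6 and 112.8 RPM. The genes higher at EHF in both included Isl1, Rbm24 and Lama1, the last at 78.7, 2232 and 183.1 RPM in the EHF Nkx2-5+ cells, against 0, 0.0882 and 48.0 RPM in the EB Nkx2-5+ cells. Medians of the lists are not set side by side between the pairs, because the minimum was applied to one of them. Of the 15 sarcomere genes compared, 5 (Tnnt2, Myh6, Myh7, Mybpc3 and Ankrd1) were at 0 in all 6 Nkx2-5+ cells. The share of all genes compared at 0 in those cells was not counted. All 5 were carried by EHF cell 3 of the first pair, with at most 11.1 RPM (Tnnt2) in EHF cells 1 and 2. Their absence from the Nkx2-5+ cells is therefore set against 1 cell and not against the Tbx5-labelled pair as a whole. The difference between the pairs was not tested.

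**Figure D4:**
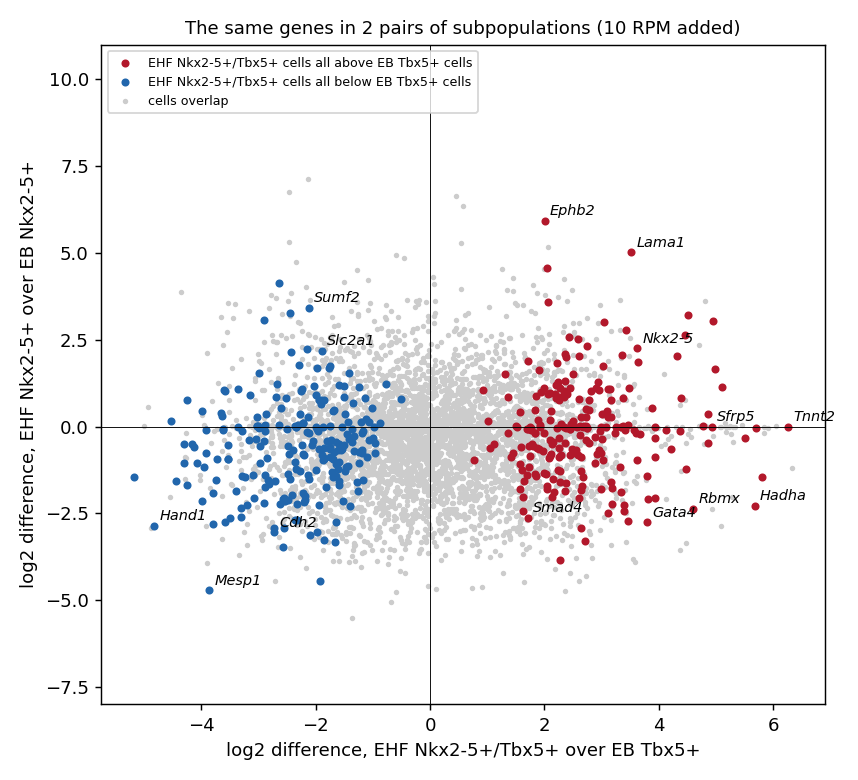
Log2 difference (10 RPM added) of each of the 4764 genes between EHF Nkx2-5+/Tbx5+ and EB Tbx5+ cells (x axis) and between EHF Nkx2-5+ and EB Nkx2-5+ cells (y axis). Red and blue mark the 220 and 218 genes whose cells did not overlap on the x axis; Mesp1 and Cdh2 lie low on both axes, Lama1 and Ephb2 high on both, and Hadha, Rbmx and Smad4 are high on the first and low on the second.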

How the data were processed

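Each cell's cDNA was amplified by PCR and sequenced. The authors aligned the reads to mm10 (aligner: not given in the sources used here; CASAVA 1.7.0 and Partek are named in the submitters' processing notes), turned the reads per gene into RPM by the total aligned in that cell, and deposited this signal without a correction for length. The deposited sheet holds 64 copies with the same values, and the first was used. Of 14085 names, 22 turned into dates by spreadsheet software were dropped. Multiplied back by the total of alignments in the sheet, 96.3% of values worth 0.5 to 20 reads were whole to within 0.02, and no count test was made because each subpopulation counts as 1 sample.

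Group means of RPM, each plus 10 RPM, were divided (3 EHF cells over 3 EB cells) and put on a log2 scale. A difference is given no p-value or standard error. The 31 gene lists are described by counts and medians beside those of all genes. Members, lists and the naming rule were chosen with earlier results of these data known. The rule names the 15 highest and 12 lowest log2 differences among those whose cells did not overlap, up to 4 genes per list, and genes the study names from its PCR markers or its sequencing; other genes were named after their values were seen. Alternatives were 1 or 100 RPM added, no minimum or one of 50 RPM, medians or means of log2 values over cells, 2 rescalings of RPM, and leaving out each cell. The steps were tested on simulated data. Gene positions are from GENCODE on mm10 and promoter windows from RefSeq on GRCm38.p6. Some single genes are left out of the text. Python 3.11.15, numpy 2.4.6, pandas 2.3.3 and matplotlib 3.10.9 were used.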

Additional observations from a re-analysis of the deposited data

Results flagged for a closer look

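For 8 of the genes named here, all EHF cells lay on one side of all EB cells in the comparison of EHF Nkx2-5+/Tbx5+ with EB Tbx5+ cells and on the opposite side in that of EHF Nkx2-5+ with EB Nkx2-5+ cells; the difference was not tested. Of these 8, 6 were higher at EHF in the first comparison and lower in the second. On the log2 scale Hadha differed by 5.68 in the first and -2.28 in the second, Rbmx by 4.60 and -2.37, Smad4 by 1.71 and -2.63, Sf3b3 by 2.09 and -0.90, Abcc5 (a transporter) by 2.27 and -3.83, and Camsap1 (a microtubule minus-end protein) by 3.40 and -2.42. The other 2 ran the opposite way, Slc2a1 by -1.90 and 2.19, and Sumf2 (a sulfatase-modifying factor) by -2.12 and 3.42. Slc2a1 had 1153, 3647 and 789.5 RPM in the EHF Nkx2-5+ cells, against 551.3, 518.4 and 135.0 RPM in the EB Nkx2-5+ cells, while in the other comparison it had 584.8, 585.2 and 0.631 RPM in the EHF Nkx2-5+/Tbx5+ cells, against 1126, 2010 and 1302 RPM in the EB Tbx5+ cells. Camsap1 had 0.0597, 0.169 and 0.561 RPM in the EHF Nkx2-5+ cells, against 21.9, 17.5 and 95.9 RPM in the EB Nkx2-5+ cells, and 145.1, 48.2 and 109.2 RPM in the EHF Nkx2-5+/Tbx5+ cells, against 0.299, 0 and 1.19 RPM in the EB Tbx5+ cells. Over all 4764 genes, 20 were higher at EHF in every cell of the first comparison and lower in every cell of the second, and 3 the reverse. In the first comparison 220 genes lay all above and 218 all below, in the second 99 and 489. Unrelated comparisons of this kind would also give genes of opposite direction, and no excess over that was tested.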

How the results depend on the processing

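No paired analysis was possible because the results come from no test and the labels tie no cell of one stage to a cell of the other. With 100 RPM added, 291 genes were higher and 274 lower by 1 or more, and with a minimum of 50 RPM 539 and 560. Genes with all EHF cells above and all below numbered 377 and 478 with no minimum and 86 and 114 with a minimum of 50 RPM; leaving out single cells gave 279 to 776 above, the most without EHF cell 3, and 261 to 615 below, the most without EB cell 2, since fewer cells overlap less. The median of the sarcomere genes was 5.01 with 1 RPM added, 0.65 with 100 RPM, 4.15 with a minimum of 50 RPM, 0.66 with no minimum, 1.08 with the median over cells, and 1.07 to 3.06 without single cells. That of the cardiac transcription factors was 3.41 with 1 RPM added, 0.54 with 100 RPM, 0.12 with no minimum, 1.34 with the median over cells, 1.58 with means of log2 values, 2.56 and 3.06 with RPM rescaled to the listed genes or without the 100 most abundant, and 1.82 to 2.46 without single cells.

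Of 122 named genes past 1 on the log2 scale, 115 kept their sign under every alternative and 57 stayed past 1. Many of the named genes had all EHF cells on one side of all EB cells, in part because the naming rule asked for it. For these genes, leaving out a cell, changing the RPM added, or taking medians or means of log2 values over cells cannot turn the sign. The count of 115 was therefore set in part by the choice of genes and is no sign of robustness by itself. Of 13 list medians past 1, 10 kept their sign and 0 stayed past 1 throughout. Leaving Nkx2-5 and Tbx5 off the cardiac transcription factors, chosen after seeing the data, gave 1.9986. Without single cells Actn4 (alpha-actinin) ranged between -0.57 (without EHF cell 3) and 1.87 and Notch1 between -0.57 (without EHF cell 1) and 2.60, Des between -0.70 (without EHF cell 1) and 2.44 and Foxf1 between -4.10 and 1.29 (without EB cell 1); with the median over cells Notch1 was -0.0117, and Ankrd1, Mybpc3 and T were at 0.00 where the only cell with reads was outvoted or left out. Among lists, the mesenchymal one (-1.19) was 0.00276 with no minimum and -2.25 to 0.79 without single cells, the highest without EB cell 1, the neural one (1 gene) was -5.56e-05 with no minimum, and the paraxial one was -4.02 with a minimum of 50 RPM, which left 1 gene. The rescalings moved the median of all genes by under 0.1. With 3 cells a group and no named embryo, the number of embryos is not known and no precision can be given.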
